A study of Mus musculus with 4 samples.

Results

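This section is about the Zic zinc finger genes Zic1, Zic2, Zic4 and Zic5 in mouse retinal organoids at day 6 of differentiation. The 4 members were picked by gene name from the 55426 rows of the deposited table, and the family was chosen from the measured difference between the Dox-treated and untreated libraries, because its members moved apart. Their differences are therefore given as a description without a test. Retinal organoids are cultured from pluripotent stem cells under conditions that favour the formation of neural retina. All libraries came from 1 line, labelled Rx:GFP Mettl3 KO, which carries a GFP reporter and a Dox-inducible HA-METTL3. The METTL3 protein places the N6-methyladenosine mark on RNA. The comparison asks what differs in early retinal differentiation when the inducible copy is meant to be on. Both untreated and both Dox-treated libraries (2 µg/ml doxycycline for 6 days) share this genotype, and the titles call them EV and EV+Dox without explaining EV. The labels do not say how many clones the line represents, or whether the 2 libraries of a group came from separate cultures, so the p-values below measure only the spread between these libraries.

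Zic proteins are transcription factors with C2H2 zinc fingers that resemble those of the Gli family. They are active in the dorsal neural tube and neural plate border, in neural progenitors and in the developing cerebellum. Zic1 and Zic4 lie head to head in one locus, and so do Zic2 and Zic5 in another. Loss of ZIC1 together with ZIC4 is linked to cerebellar malformation in humans. Loss of ZIC2 causes holoprosencephaly, a failure to divide the forebrain. In the eye, Zic2 is known for directing a group of retinal ganglion cell axons to the same side of the brain.

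The 4 genes lie as divergent pairs in GENCODE M21, on the mm10 (GRCm38) build that the submitters' processing notes name. Zic1 (ENSMUSG00000032368) spans chr9:91358058-91365810 on the minus strand, and Zic4 (ENSMUSG00000036972) spans chr9:91362413-91389348 on the plus strand. Zic5 (ENSMUSG00000041703) spans chr14:122456795-122465677 on the minus strand, and Zic2 (ENSMUSG00000061524) spans chr14:122475435-122479852 on the plus strand. In RefSeq (GRCm38.p6) the starts of Zic1 and Zic4 are 3204 bases apart, and those of Zic5 and Zic2 are 9726 bases apart. The 250 bases before the start are shown for Zic1 and Zic4, which differed in the same direction, and for Zic5 of the other pair. These 3 of the 4 members matched the RefSeq promoter table, and Zic2 did not. Capitals mark matches, on either strand, to the CCAAT box (CCAAT), the TATA box (written TATAAA here), the E-box (searched as CACGTG), the GC box (searched as GGGCGG), a homeodomain core (TAATTA) or a core that is reported for Zic factors (CAGCAGG).
Zic1, chr9:91365769-91366018, minus strand: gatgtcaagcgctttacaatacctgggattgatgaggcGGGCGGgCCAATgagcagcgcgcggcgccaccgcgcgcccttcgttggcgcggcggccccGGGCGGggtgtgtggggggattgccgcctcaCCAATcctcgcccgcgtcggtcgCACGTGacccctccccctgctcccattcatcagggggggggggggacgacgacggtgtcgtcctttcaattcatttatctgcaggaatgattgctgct
Zic4, chr9:91368722-91368971, plus strand: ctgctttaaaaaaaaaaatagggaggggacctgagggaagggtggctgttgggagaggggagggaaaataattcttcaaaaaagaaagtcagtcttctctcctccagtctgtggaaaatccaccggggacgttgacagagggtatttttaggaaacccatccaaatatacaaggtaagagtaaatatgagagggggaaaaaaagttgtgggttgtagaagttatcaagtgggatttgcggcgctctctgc
Zic5, chr14:122465659-122465908, minus strand: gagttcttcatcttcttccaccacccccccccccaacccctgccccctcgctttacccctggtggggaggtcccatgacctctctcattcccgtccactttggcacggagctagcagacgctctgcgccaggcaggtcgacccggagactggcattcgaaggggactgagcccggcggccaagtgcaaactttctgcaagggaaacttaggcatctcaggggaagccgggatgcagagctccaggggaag

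The windows before the RefSeq starts of the pair that moved together did not resemble each other in composition. The Zic4 window lies inside the span that GENCODE M21 gives Zic4, and no window before the GENCODE start was examined. The Zic1 window was 66.0% GC and held 27 CG dinucleotides, more than 91.4% of the 32851 promoter windows of the same length. The Zic4 window was 44.4% GC with 4 CG dinucleotides, against a median of 52.4% GC and 6 CG dinucleotides over all windows. Zic5 lay between them, at 62.4% GC with 11 CG dinucleotides. Zic1 held 2 matches to CCAAT (found in 33.8% of all windows), 2 to the GC box GGGCGG (32.7%) and 1 to the E-box CACGTG (6.02%), and these matches do not overlap. None of the 6 motifs was in the Zic4 or Zic5 window. TATAAA occurs in 12.4% of all windows, the homeodomain core TAATTA in 4.84% and CAGCAGG, a core reported for Zic factors, in 8.44%.

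Values are FPKM, read fragments scaled to transcript length and library depth, so that levels can be compared between genes. Depth recovered from the steps of low values was 31700000 to 34900000 fragments per library. Between 23334 and 23871 rows were above 0. Mettl3 was listed at 40.33 and 37.98 FPKM untreated and at 45.2 and 46.37 FPKM with Dox, which did not pass the threshold (log2 fold change 0.22, limma adjusted p = 0.122), and the table does not separate the inducible copy from the targeted locus. The eye-field gene Rax was at 1.12 and 0.82 FPKM untreated and at 201.14 and 227.98 FPKM with Dox. The untreated organoids thus had little of a marker that defines the labelled tissue, and Six6, another such marker, had 0.01 FPKM without Dox in either library. In bulk RNA, fewer cells of a type and less RNA per cell cannot be told apart.

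The chromosome 9 pair, Zic1 and Zic4, stood far lower in the Dox-treated libraries. Zic1, the founding member, first described in cerebellar granule cells, measured 70.99 and 66.83 FPKM without Dox and 3.13 and 3.37 FPKM with it. Every untreated value lay far above both Dox values. The means were 68.9 ± 2.94 and 3.25 ± 0.170 FPKM (SD, n = 2 each), so the untreated level was 21.2 times the Dox level, and between 19.8 and 22.7 times when single libraries are divided. Among the 13931 genes tested, whose mean over the 4 libraries reached 1 FPKM, Zic1 went from percentile 87.1 and 86.1 of the level to percentile 18.3 and 19.0.

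Zic4, the partner transcribed away from Zic1, was the lowest of the members in all 4 libraries. It was at 5.00 and 5.20 FPKM untreated and at 0.19 and 0.23 FPKM with Dox, again without overlap. The untreated mean of 5.10 ± 0.141 FPKM was 24.3 times the Dox mean of 0.210 ± 0.0283 FPKM (SD, n = 2 each), with single-library ratios from 21.7 to 27.4. The Dox values correspond to about 22 and 27 fragments on the longest protein-coding transcript, for which counting error alone is 21.3% and 19.1%. Zic4 passed the filter on low values only through its untreated libraries.

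The chromosome 14 pair, Zic2 and Zic5, stood moderately higher with Dox. Zic2 was at 43.64 and 38.13 FPKM untreated and at 61.24 and 78.72 FPKM with Dox. The groups did not overlap, but the Dox libraries lay further apart than the untreated ones. The means were 40.9 ± 3.90 and 70.0 ± 12.4 FPKM (SD, n = 2 each), a ratio of 1.71 that ranged from 1.4 to 2.06 between single libraries. Zic5, which lies head to head with Zic2, was at 9.94 and 9.43 FPKM untreated and at 14.80 and 16.29 FPKM with Dox. Its means were 9.68 ± 0.361 and 15.5 ± 1.05 FPKM (SD, n = 2 each), a ratio of 1.61 with single-library ratios from 1.49 to 1.73.

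**Figure D1:**
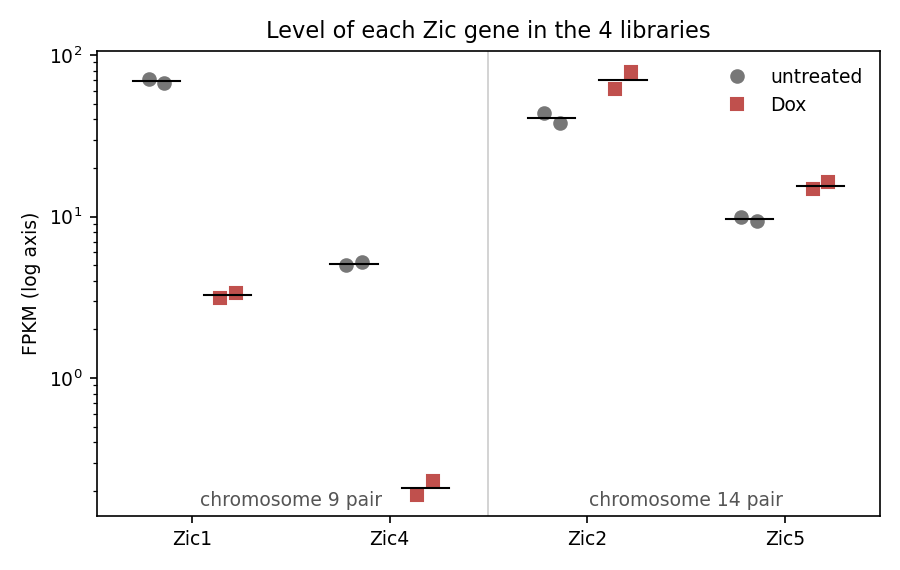
FPKM (log axis) of each Zic gene in the 2 untreated libraries (grey circles) and the 2 Dox libraries (red squares), with a black line at each group mean. Zic1 and Zic4 are lower with Dox by 21.2 and 24.3 times, and Zic2 and Zic5 are higher by 1.71 and 1.61 times.

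In 4 of 4 members every Dox library lay on 1 side of every untreated one, as was true of 53.4% of all tested genes, and nothing is read from that count because the contrast chose the family. On the log2(FPKM + 1) scale, where changes of weakly expressed genes come out too small, the difference between the group means was -4.04 for Zic1, -2.33 for Zic4, 0.75 for Zic2 and 0.63 for Zic5. Without the added 1 the log2 differences of Zic1 and Zic4 were -4.41 and -4.61, so the gap between these partners on the first scale comes from their levels. Over all tested genes the 5th and 95th percentiles were -0.55 and 0.51 and the median was -0.0042.

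Within each pair the proportion of the partners moved less than the level of the pair. Zic1 was 14.2 and 12.9 times Zic4 in the untreated libraries and 16.5 and 14.7 times Zic4 with Dox. The means of this ratio were 13.5 ± 0.952 and 15.6 ± 1.29 (SD, n = 2 each). Both Dox ratios lay above both untreated ones, but they rest on about 22 and 27 Zic4 fragments, with counting errors of 21.3% and 19.1%. Zic2 was 4.39 and 4.04 times Zic5 untreated, and 4.14 and 4.83 times with Dox, so these ratios overlapped between the groups. Between the pairs the order turned over. Zic2 was 0.615 and 0.571 times Zic1 untreated and 19.6 and 23.4 times Zic1 with Dox.

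The summed level of the 4 genes was 129.57 and 119.59 FPKM untreated and 79.36 and 98.61 FPKM with Dox. Zic1 and Zic4 made up 59.4 ± 1.12% of the sum untreated and 3.92 ± 0.377% with Dox (SD, n = 2 each). Zic1 alone was 54.8% and 55.9% of the sum in the untreated libraries, and Zic2 alone was 77.2% and 79.8% with Dox. The sum therefore differed less than its make-up, as the most abundant of the 4 was Zic1 without Dox and Zic2 with it.

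**Figure D2:**
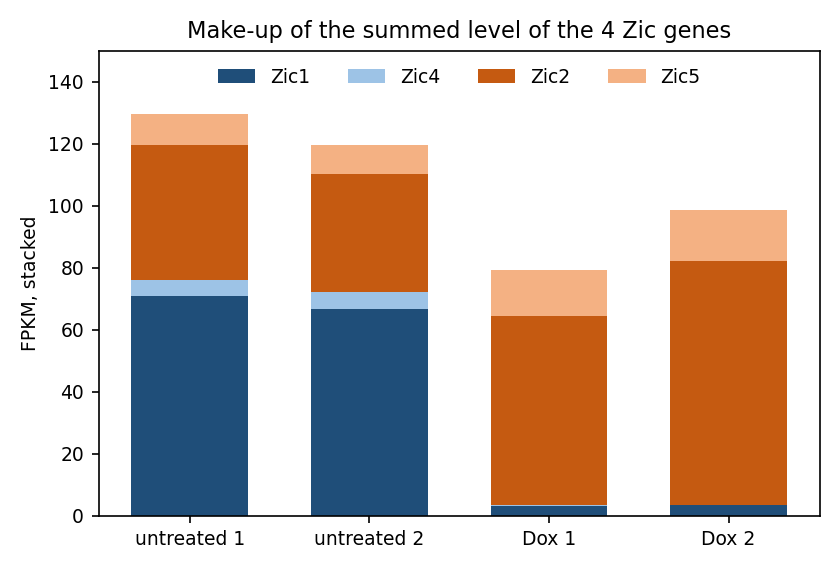
FPKM of the 4 Zic genes stacked for each library. Zic1 and Zic4 (blue) take 58.6% and 60.2% of the untreated bars and 4.18% and 3.65% of the Dox bars, where Zic2 (dark orange) is the main part.

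The annotation puts little sequence in common between the members and other genes. Exons of Zic1 and Zic4 overlap by 60 bases on opposite strands, which is 1.05% of the exonic bases of Zic1 and 0.581% of those of Zic4. Exons of Zic4 also overlap those of Gm37477 on the other strand by 468 bases. Whether counting used strand is not given in the sources used here, so reads of these stretches could fall to either gene. Gm37477, named after its values were seen, was listed at 0.98 and 1.06 FPKM untreated and at 0.12 and 0.07 FPKM with Dox. The noncoding 2610035F20Rik between Zic5 and Zic2, also named after its values were seen, was at 0.72 and 0.84 FPKM untreated and at 0.62 and 1.23 FPKM with Dox. Both means were below the filter.

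Genes beside the pairs were examined because their position does not depend on the choice of the family. The 3 nearest protein-coding genes on each side of each pair gave 12 neighbours, of which 8 passed the filter and were tested. The threshold here and below is a Benjamini-Hochberg adjusted p under 0.05 over all tested genes in limma, which 9.31% of them passed, 4.44% higher and 4.87% lower with Dox. Ggact, an enzyme gene 336.4 kb from Zic2, was at 2.45 and 2.55 FPKM untreated and at 4.98 and 5.23 FPKM with Dox, and it rose (log2 fold change 0.80, SE 0.107, limma adjusted p = 0.00941). This call was lost without the filter and whenever 1 library was left out. Of the genes nearer to the pair on this side, Gm10837 was nearly silent and was not tested. Pcca, a mitochondrial carboxylase subunit gene whose span overlaps that of Ggact on the other strand, did not pass (log2 fold change 0.11, limma adjusted p = 0.465). On the other side of Zic5, Clybl was at 0.31 (limma adjusted p = 0.259) and Tm9sf2 at 0.12 (0.324). The chromosome 9 pair lies in a gene-poor stretch. Its nearest tested neighbours were Plscr1, 860.4 kb away, with a log2 fold change of 0.14 (limma adjusted p = 0.363), and Tbc1d2b, 1087.3 kb away, with -0.23 (0.265). Adamts7 and Morf4l1 were at -0.31 and 0.00 (0.136 and 0.986).

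**Figure D3:**
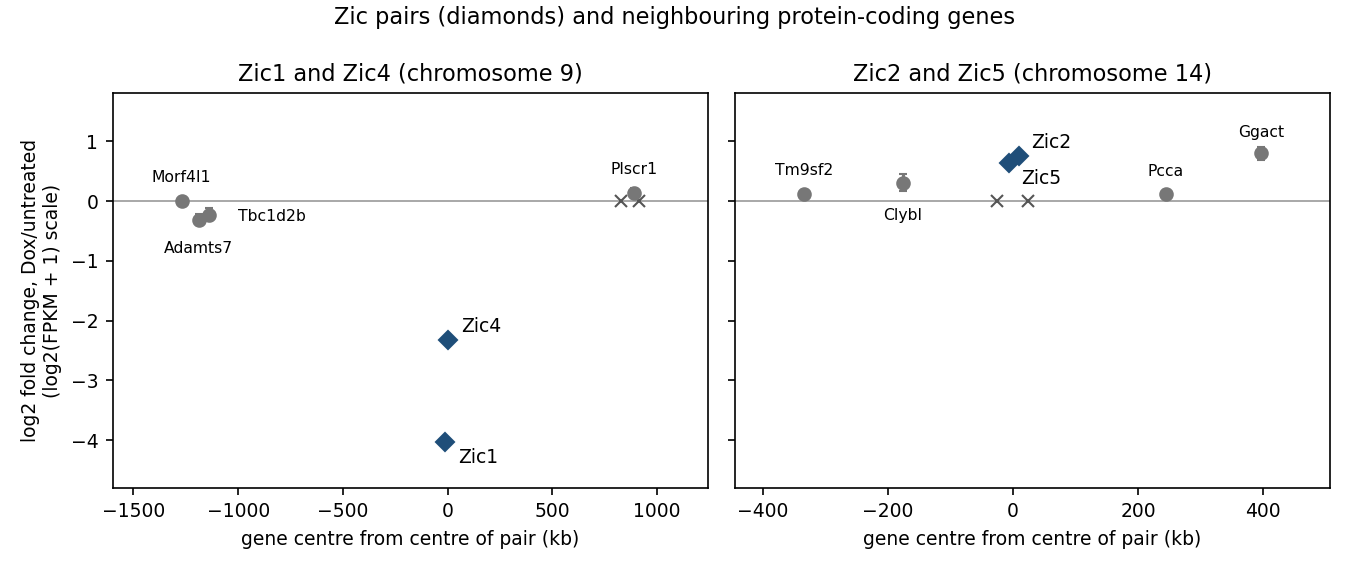
Log2 fold change on the log2(FPKM + 1) scale for each Zic pair (diamonds) and its neighbouring protein-coding genes (circles, bars show the SE; crosses at 0 mark neighbours below the filter), against the distance of the gene's centre from the centre of the pair in kb. Zic1 and Zic4 reach -4.04 and -2.33 between neighbours within 0.31 of 0, and Ggact at 0.80 is the farthest tested gene to the right of Zic2.

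The mature transcripts differ in how often they carry GGACT, one sequence form of the motif that METTL3 methylates. Methylation itself was not measured in these libraries. The longest protein-coding transcript of Zic1 (5606 nt) held 2 copies and that of Zic4 (3891 nt) also 2, or 0.357 and 0.514 per kb. The transcripts of Zic2 (2440 nt) and Zic5 (4767 nt) held 3 and 7, or 1.23 and 1.47 per kb. The median over 11629 tested genes with such a transcript was 1.05 per kb. Zic1 and Zic4 were thus below it and Zic2 and Zic5 above it, a description of 4 genes that carries no test.

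To show which genes behaved most like each member, distances were computed over the 4 libraries on log2(FPKM + 1), centred per gene, where 0 means the same profile. The nearest to Zic1 were the Wnt ligand Wnt8b (distance 0.244), the Wnt signal enhancer Rspo2 (0.429) and the Wnt ligand Wnt7b (0.511). Wnt8b was at 87.09 and 85.29 FPKM untreated and at 4.07 and 5.57 FPKM with Dox. The nearest to Zic4 were the transcription factor gene Sp5 (0.0672), the ligand Wnt1 (0.119) and the Wnt receptor Fzd10 (0.140). Sp5 was at 6.18 and 6.13 FPKM untreated and at 0.42 and 0.51 FPKM with Dox. Other Zic genes and unnamed, predicted or pseudogene entries were left out of these nearest lists, so a partner could not appear in them. Zic1 and Zic4 were 1.71 apart, with 40 tested genes closer to Zic1. The added 1 FPKM ties this measure to the level of a gene, and the log2 differences of Zic4 and Zic1 without it were -4.61 and -4.41. The nearest to Zic2 were Cxxc5 (0.0418), the zinc finger gene Zbtb16 (0.0589) and Rtn4rl2 (0.0639). The nearest to Zic5 were Edaradd (0.0153), Setdb2 (0.0297) and Cpq (0.0380). Zic2 and Zic5 were 0.220 apart on the same measure, with 85 tested genes closer to Zic2. With 4 libraries such closeness is a description of the profile only.

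The Gli and Glis genes, whose zinc fingers are the closest to those of Zic, also split. Of the 6 genes, 4 were tested, 1 rose and 1 fell. Gli3, the main repressor at the end of the hedgehog pathway, was at 54.29 and 49.00 FPKM untreated and at 21.26 and 24.22 FPKM with Dox, and it fell (log2 fold change -1.15, SE 0.0945, limma adjusted p = 0.00166). Glis3 was at 1.27 and 1.2 FPKM untreated and at 4.91 and 6.06 FPKM with Dox, and it rose (log2 fold change 1.53, SE 0.135, limma adjusted p = 0.00215). Gli2 and Glis2 did not pass, at 0.15 and 0.45 (limma adjusted p = 0.573 and 0.107). Gli1, a hedgehog target, was below the filter at 1.08 and 1.22 FPKM untreated and 0.54 and 0.63 FPKM with Dox. Glis1 was also below it, at 0.57 and 0.30 FPKM untreated and 1.38 and 1.5 FPKM with Dox. The median of the 4 tested genes was 0.30.

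Genes that share the holoprosencephaly link with Zic2 changed in both directions. Of 15 listed genes 13 were tested, 4 rose and 3 fell, with a median log2 fold change of 0.011 beside -0.0042 over all tested genes. Six3, an eye-field and forebrain factor, was at 7.70 and 7.05 FPKM untreated and at 83.02 and 108.75 FPKM with Dox (log2 fold change 3.52, limma adjusted p = 1.46e-04). The hedgehog co-receptor gene Cdon rose as well, from 13.8 ± 0.969 to 39.0 ± 5.36 FPKM, and its close relative Boc fell, from 12.2 ± 0.297 to 5.09 ± 0.212 FPKM (SD, n = 2 each). Gas1 (0.75) and Fgf8 (0.78) also rose, and Dll1 (-1.62) and Ptch1 (-0.75), the hedgehog receptor gene, fell. Their limma adjusted p-values were at most 0.0099. Without the filter, or without either untreated library, 4 genes of this list passed in place of 7. Shh and Nodal were under 1 FPKM in every library.

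Of 11 genes reported elsewhere to respond to Zic factors, 6 were tested, 1 rose and 2 fell. The lipid carrier gene Apoe was at 269.58 and 287.32 FPKM untreated and at 521.35 and 487.00 FPKM with Dox (log2 fold change 0.85, limma adjusted p = 0.00263). Pax3, a neural plate border factor, was at 6.97 and 6.99 FPKM untreated and at 0.71 and 0.47 FPKM with Dox (-2.33, limma adjusted p = 4.56e-04). Foxd3, a neural crest factor, was at 5.00 and 4.66 FPKM untreated and at 0.45 and 0.07 FPKM with Dox (-2.23, limma adjusted p = 0.00162). Pax3, Foxd3 and Snai2, which did not pass (0.45, limma adjusted p = 0.0966), also stand on the neural crest list below. Ephb1 and Nanog did not pass either, each at -0.40 (limma adjusted p = 0.147 and 0.18). The 5 genes that were not tested were under 1 FPKM in all libraries. Among 10 reported protein partners of Zic factors, 1 passed, a share near the 9.31% of all tested genes. Mdfi, which can hold Zic proteins in the cytoplasm, was at 24.30 and 21.11 FPKM untreated and at 32.07 and 32.33 FPKM with Dox (0.49, limma adjusted p = 0.0273). Its call was lost with rescaling to TPM, without the filter and whenever 1 library was left out.

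Among markers of other tissues in which Zic genes are active, most genes of the dorsal midline and neural crest lists were lower with Dox, like the chromosome 9 pair. Of the 17 genes of the forebrain dorsal midline and roof plate 13 were tested, 10 fell and 2 rose. The summed level of the list was 337.40 to 347.75 FPKM untreated and 137.44 to 154.53 FPKM with Dox, and Ttr was at most at 0.30 FPKM. Most of the Dox sum came from Bmp4 (95.05 and 79.29 FPKM) and Msx2 (21.66 and 23.61 FPKM), the 2 genes that rose. Wnt8b had a log2 fold change of -3.92, Rspo2 of -3.62 and Rspo3 of -3.32, while Bmp4 (3.90) and Msx2 (2.20) rose, with limma adjusted p-values of at most 9.36e-04. All 10 neural crest genes were tested, 6 fell and 1, Sox9, rose. Their sum was 50.29 to 52.73 FPKM untreated and 22.64 to 23.58 FPKM with Dox. Sox10, which defines migrating crest, was at 12.79 and 13.35 FPKM untreated and at 0.82 and 0.43 FPKM with Dox (-3.12, limma adjusted p = 2.69e-04), and Tfap2b also fell (-2.45). Among cerebellar granule lineage genes 5 of 10 were tested, 3 fell and 1 rose, but the defining Atoh1 was at most at 0.09 FPKM and En1 and En2 at most at 0.12 FPKM. The sum was 150.33 to 163.13 FPKM untreated and 159.60 to 170.35 FPKM with Dox, most of it Pax6, and Barhl1 (-2.45), Cbln1 and Neurod1 fell while Meis1 (2.68) rose. The part of any of these cell types in the Zic1 and Zic4 values was not tested.

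Eye markers moved with the chromosome 14 pair. Of 13 retinal progenitor and eye-field genes 12 were tested and 11 rose, led by Rax, Six6, Tbx2 and Hmx1. Pax6 did not pass. Their sum was 167.02 to 180.62 FPKM untreated and 1105.66 to 1298.79 FPKM with Dox. Optic stalk genes summed to 0.42 to 0.49 FPKM untreated and 30.07 to 40.73 FPKM with Dox, and both tested genes, Pax2 and Vax2, rose. In the untreated libraries Zic2 was at 38.13 to 43.64 FPKM, Rax at 0.82 to 1.12 FPKM and Pax2 at 0.20 to 0.22 FPKM. Pax6 was at 118.86 to 127.76 FPKM in them, Lhx2 at 24.30 to 26.72 FPKM and Mab21l2 at 11.49 to 12.46 FPKM. The primed epiblast, where Zic2 and Zic5 are also known to be active, gave a sum of 292.60 to 298.83 FPKM untreated and 311.54 to 313.28 FPKM with Dox, most of it Otx2 and Sall2. Fgf5 and Lefty2 of this list did not exceed 0.45 FPKM. Pou5f1 was at 10.84 and 9.24 FPKM untreated and at 12.08 and 8.14 FPKM with Dox and did not pass. Nanog, Utf1 and Tdgf1 lay between 1.19 and 6.55 FPKM over all libraries and did not pass either. Of the 8 tested genes 2 rose (Dnmt3b and Sall2) and 2 fell (Pou3f1 and Otx2). Each of these 4 calls was lost without the filter. Otx2 also lost its call when any 1 library was left out, with the replicate block and in eBayes without trend. Dnmt3b and Pou3f1 lost theirs without either Dox library, and Sall2 without either untreated library or without Dox replicate 2. Meninges and head mesenchyme genes summed to 11.90 to 13.66 FPKM untreated and 22.29 to 24.50 FPKM with Dox. Most of this difference came from Col1a2, at 2.46 and 1.93 FPKM untreated and at 12.21 and 12.02 FPKM with Dox. Twist1, Pdgfra and Pdgfrb were also higher in both Dox libraries, and Foxc1, Prrx1, Lum, Dcn and Tbx18 were lower in both. Of the 5 tested, 2 rose (Col1a2 and Pdgfra), and the defining Foxc1 did not exceed 0.74 FPKM. The Pdgfra call was lost without the filter, without untreated replicate 1 and without either Dox library. All 10 somite genes stayed below 1 FPKM, with sums of 1.61 to 2.18 FPKM over all libraries. The part of these cell types in the Zic2 and Zic5 values was not tested either.

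**Figure D4:**
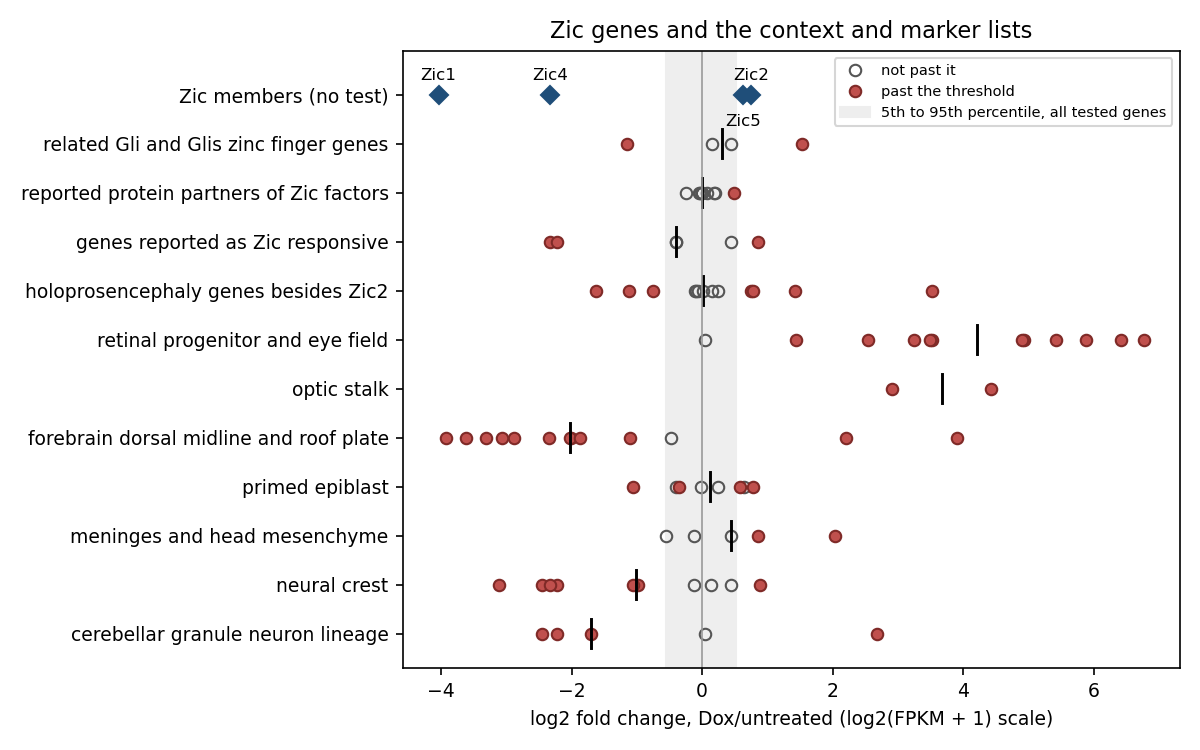
Log2 fold change on the log2(FPKM + 1) scale of the 4 Zic genes (diamonds, no test) and of the tested genes of each list (filled: past the threshold; open: not past it; black bar: median of the list), with the 5th to 95th percentile of all tested genes in grey, from -0.55 to 0.51. Zic1 and Zic4 lie on the side of most dorsal midline and neural crest genes, and Zic2 and Zic5 lie at 0.75 and 0.63, below the eye-field median of 4.2.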

How the data were processed

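Poly(A) RNA of 4 organoid libraries was sequenced as paired-end reads. The authors deposited 1 table of FPKM values per gene and library, rounded to 2 decimals and not pooled. STAR, Cuffdiff and mm10 are named in the submitters' processing notes. The annotation release and the strand setting are not given in the sources used here. The labels give all libraries the same batch, so no batch could be separated.

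Values were transformed to log2(FPKM + 1), and 13931 genes, those whose mean reached 1 FPKM, were fitted with limma 3.58.1 in R 4.3.3 (lmFit, eBayes with trend, no covariate, two-sided, Benjamini-Hochberg over all tested genes, threshold 0.05). With 2 against 2 libraries an exact permutation test cannot go below 0.333, and the p-values given depend on the variance that limma shares across genes. The members and lists were chosen with earlier results of these data known. Lists are described by counts and medians. Named are the members, their neighbours, the 3 nearest profiles per member, and up to 4 called genes per list by size of change, plus genes that ran against their list. Depth was fitted in Python 3.11.15 from the steps of values under 0.5 FPKM in single-transcript genes of 450 to 1200 nt, of which 87.2% to 88.1% lay within 0.15 of a whole fragment. Annotation was GENCODE M21, which matched 55240 of 55426 rows, and promoters came from RefSeq GRCm38.p6. Alternatives were other pseudocounts, filters, scalings, eBayes options, the replicate block and each library left out. One further row of the family is not reported here, though it stays in the fits.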

Additional observations from a re-analysis of the deposited data

How the results depend on the processing

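The 4 Zic genes kept their direction under all 14 alternatives in which they were tested (Zic4 falls out with a minimum of 5 FPKM). The pseudocount set the size of the log2 difference: with 0.1 it was -4.36 for Zic1 and -4.07 for Zic4, and with 5 it was -3.16, -0.95 and, for Zic5, 0.48. Zic4 was at -2.49 after rescaling to TPM and at -2.39 after quantile normalization. The all-gene median shifted by at most 0.0207 under the 3 scalings. Over all genes 745 were called without a filter and 821 with a minimum of 5 FPKM, against 1297, and leaving out 1 library gave 593 to 697, with the lone library of a group assumed to vary like the others. A minimum of 5 FPKM left 1 call among the Gli and Glis genes, 1 among the Zic-responsive genes, 0 beside the loci and 27 in the marker lists, since fewer genes were tested. Without a filter 0 partner genes, 0 neighbours and 4 holoprosencephaly genes were called, and TPM left 0 partner genes. The cause was not tested. Leaving out 1 library left 0 partner genes and 0 neighbours in every case, and 4 to 5 holoprosencephaly genes. In these limma fits with 0 calls, 1 to 2 partner genes and 1 to 3 neighbours had an unadjusted p under 0.05. Outside the family, 34 called genes were followed singly, and 27 kept the call under every alternative in which they were tested. The other 7 lost it in some (Dnmt3b, Ggact, Mdfi, Otx2, Pdgfra, Pou3f1 and Sall2), Otx2 also with the replicate block. Further called genes named above, among them Gas1, Fgf8, Ptch1, Msx2 and Sox9, were not followed singly. Without the filter the 4 holoprosencephaly genes called were Six3, Dll1, Cdon and Boc, so Gas1, Fgf8 and Ptch1 lost their calls there. Morf4l1, which had not passed, lay between -0.0343 and 0.0396 when 1 library was left out, and was below 0 without Dox replicate 1 (-0.0343) or untreated replicate 1 (-0.0178). With the replicate block 1134 genes were called and the Zic differences were the same. Replicate numbers did not track each other across the groups (correlation of replicate differences -0.043).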
